A study of Mus musculus with 11 samples.

Results

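The clustered protocadherin locus was defined as a window of 0.92 Mb on mouse chromosome 18, from 37080000 to 38000000 in build mm9, and its members are the huntingtin (HTT) ChIP-seq peaks whose summits lie in it. The window held 483 of the 1298473 peaks in the 7 deposited HTT lists, and it was compared with the 2 Mb on either side, 35080000 to 37080000 (the proximal flank) and 38000000 to 40000000 (the distal flank). The flanks held 1048 and 1111 peaks.

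The tissue was striatum, the brain region hit hardest in Huntington's disease, taken from B6 males 4 months old. HTT-bound chromatin was precipitated from formaldehyde-fixed tissue with the antibody EPR5526 after MNase digestion and sonication. Of the 7 libraries, 4 were from heterozygotes with 1 knock-in allele carrying an expanded CAG repeat (Q111/+) and 3 from wild-type mice (WT), and no other allele or treatment is named. Input DNA was not analysed here. The labels do not say that each library came from its own animal, so p-values measure only the spread between these libraries, part or all of which may be technical. List names carry the prefix DB (Q111/+ replicates 1 and 2 and WT replicate 1) or JP (Q111/+ replicates 3 and 4 and WT replicates 2 and 3). The sources used here do not explain these letters.

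Clustered protocadherins are cell-surface adhesion proteins of neurons. Their genes lie in 3 arrays, alpha, beta and gamma. In the alpha and gamma arrays, many alternative first exons, each with its own promoter, are joined to shared constant exons, whereas the beta genes are single-exon units. Each neuron uses a small set of these promoters, a choice that involves DNA methylation, the insulator protein CTCF and distant enhancers, and the resulting mix of proteins lets a neuron tell its own branches from those of its neighbours. In the RefSeq gene table of assembly GRCm38.p6 the chromosome carries 14 genes named Pcdha, 22 named Pcdhb and 22 named Pcdhg, in that order from Pcdha1 to Pcdhgc5. Zmat2 is the nearest protein-coding gene before them and Diaph1 the nearest after them. Slc25a2, a mitochondrial carrier gene, and Taf7, a gene of the general transcription machinery, lie between the beta and gamma arrays. Without an mm9 annotation, peaks are given by position and are not assigned to single genes, exons or promoters.

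HTT peaks were thinner in the protocadherin window than in its flanks in all 3 DB libraries and denser in all 4 JP libraries. The window held 30, 19, 53 and 46 peaks in Q111/+ replicates 1 to 4, and 126, 154 and 55 in WT replicates 1 to 3. The lists themselves held 88920 to 495334 peaks, so peak numbers were read as densities within a list. Peaks per Mb in the window divided by peaks per Mb in both flanks was 0.588, 0.430 and 0.512 in Q111/+ replicates 1 and 2 and WT replicate 1, the DB libraries. It was 2.53, 1.65, 2.63 and 1.15 in Q111/+ replicates 3 and 4 and WT replicates 2 and 3, the JP libraries. The 2 sets of libraries did not overlap, and the sets lay on opposite sides of 1. In these full lists WT replicate 3 was the JP library nearest to an even density.

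Averaged over all 7 libraries, no difference between the window and its flanks was detected. The mean log2 ratio was 0.10 ± 1.10 (SD, n = 7), above 0 in 4 libraries and below 0 in 3 (two-sided exact sign-flip permutation test, p = 0.812). Among 2675 windows of the same length tiled over the genome, each with 2 Mb flanks, 5.5% had a ratio above 1 in all 7 libraries and 7.21% a ratio below 1 in all 7. Split by prefix, the mean log2 ratio was 0.91 ± 0.56 (SD, n = 4) in JP and -0.98 ± 0.23 (SD, n = 3) in DB libraries. The difference was 1.90 on the log2 scale, or 3.73-fold (two-sided exact permutation over all 35 ways to split the libraries, p = 0.0286, which no split of this size can undercut). This comparison was chosen after the data were seen. With prefixes permuted only within a genotype, the mean difference was 1.89, being 2.02 among Q111/+ and 1.76 among WT libraries (exact permutation p = 0.111, where the smallest possible is 0.0556). Leaving out any 1 library gave differences of 1.74 to 2.14, with p-values of 0.0667 to 0.1, the smallest that each reduced design allows. What the prefix stands for, and its part in the difference, was not tested.

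Both the window and its flanks contributed to the contrast. Relative to the mean density of its own list, the window held 0.757, 0.600 and 0.714 times as many peaks per Mb in Q111/+ replicates 1 and 2 and WT replicate 1. The same measure was 1.41, 1.17, 1.74 and 1.12 in Q111/+ replicates 3 and 4 and WT replicates 2 and 3. The DB libraries were thus all below and the JP libraries all above the average of their lists. The JP minus DB difference was 0.96 on the log2 scale (exact permutation p = 0.0286). With prefixes permuted only within a genotype it was 0.95 (exact permutation p = 0.0556, the smallest possible), which does not pass the threshold. The flanks showed the opposite order, at 1.29 to 1.39 times the list average in DB and 0.555 to 0.977 times in JP libraries, a log2 difference of -0.94 (exact permutation p = 0.0571).

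**Figure D1:**
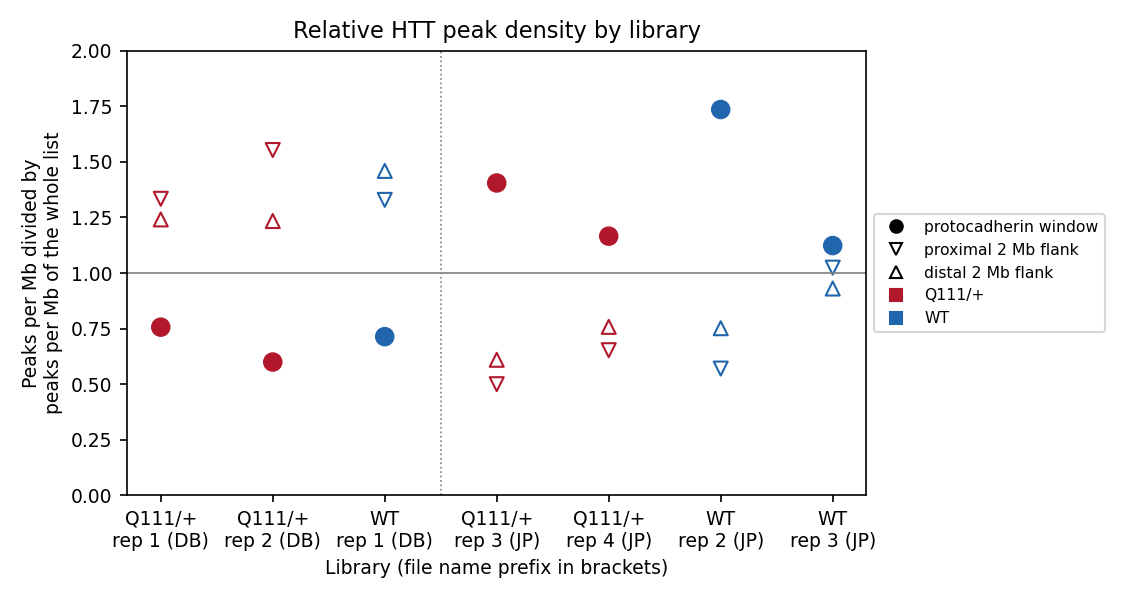
Peaks per Mb in the protocadherin window (filled circles) and in the proximal and distal flanks (open triangles), each divided by the peaks per Mb of the whole list, for each of the 7 libraries, coloured by genotype. The window lies below both flanks in the 3 DB libraries and above both in the 4 JP libraries; WT replicate 3 has the smallest gap.

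Such a non-overlap between prefixes was common elsewhere in the genome, but a contrast of this size was not. Of the 2675 tiled windows, 14.9% had a higher and 13.7% a lower ratio to their flanks in every JP than in every DB library. A ratio above 1 in every JP and below 1 in every DB library, the pattern of the protocadherin window, was found in 3.81%. Counted from the highest JP minus DB difference the protocadherin window ranked 3 of 2675, and by size in either direction 5, where the median window had a difference of 0.01. The higher values belonged to a window on chromosome 2 (36160001 to 37080000) and one on chromosome 7 (54560001 to 55480000). For density relative to the whole list, the JP minus DB difference of the protocadherin window was less extreme and ranked 337 of 2675. By that measure 28.6% of windows were higher and 21.6% lower in every JP than in every DB library. These ranks describe the window and are not a test. The JP libraries were not a uniform set over the genome. Over windows, the deviations of WT replicate 2 correlated with those of Q111/+ replicates 3 and 4 at 0.69 and 0.44. For WT replicate 3, also JP, the correlations with the same libraries were -0.002 and 0.050. With Q111/+ replicates 1 and 2, which are DB, they were -0.015 and -0.022.

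**Figure D2:**
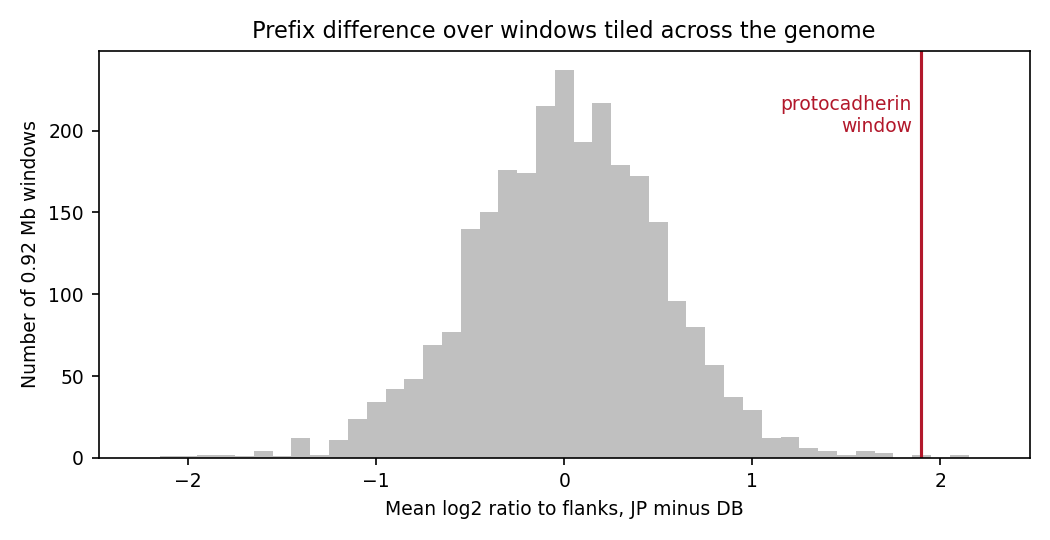
Number of 0.92 Mb windows (vertical axis) by the mean log2 ratio of peak density to the flanks in JP minus that in DB libraries (horizontal axis), over 2675 windows. The line marks the protocadherin window at 1.90, near the upper end of the distribution, which reaches 2.07.

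The genotypes could not be told apart by the relative density of the locus. The log2 ratio to the flanks was 0.02 ± 1.21 (SD, n = 4) in Q111/+ and 0.21 ± 1.18 (SD, n = 3) in WT libraries, a difference of -0.19 (two-sided exact permutation test, p = 0.886). Relative to the whole list the means were -0.11 ± 0.56 (SD, n = 4) and 0.16 ± 0.64 (SD, n = 3), a difference of -0.27 (exact permutation p = 0.571). The ranges of the genotypes overlapped by both measures. Among the tiled windows, 2.17% had a higher and 2.99% a lower ratio to the flanks in every Q111/+ than in every WT library, and by the ratio to the whole list 1.91% were higher and 1.76% lower. The protocadherin window was in none of these classes. Within prefixes the Q111/+ minus WT difference of the log2 ratio to the flanks was -0.03 among DB and 0.24 among JP libraries (mean 0.10, exact permutation within prefixes, p = 0.778). Within both prefixes at least 1 Q111/+ library lay above and 1 below a WT library. The spread between libraries of the same genotype was more than 1 on the log2 scale, which limits the size of genotype difference that 7 libraries can show.

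In absolute terms more of the window was called in WT, as is true of the longer WT lists in general. Peaks covered 0.631%, 0.445%, 1.35% and 1.15% of the window in Q111/+ replicates 1 to 4 and 3.31%, 3.83% and 1.13% in WT replicates 1 to 3. WT replicate 3 fell within the range of the Q111/+ libraries. In lists trimmed to equal length, the 88920 peaks with the highest −log10 p, the window held 25, 19, 39 and 31 peaks in Q111/+ replicates 1 to 4. It held 11, 47 and 43 in WT replicates 1 to 3. WT replicate 1, with 126 peaks in its full list, had the fewest here, and the ratio to the flanks was at most 0.611 in DB and at least 1.39 in JP libraries there. The ratio of WT replicate 1 was 0.242 in its trimmed list, and that of WT replicate 3 was 1.78, so that Q111/+ replicate 4, at 1.39, was the JP library nearest to an even density.

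The contrast between the prefix means followed the borders of the window, with an exception at its proximal edge. Peaks were counted in 4 segments of 230 kb within the window and in 8 on each side. In all 4 segments of the window the mean relative density was lower in DB than in JP libraries, at 0.581 to 0.819 times the list average in DB and 0.916 to 1.82 times in JP. In the third segment, 37540001 to 37770000, every JP library (1.32 to 2.16) lay above every DB library (0.605 to 0.680). This segment held 18, 13, 48 and 23 peaks in Q111/+ replicates 3 and 4 and WT replicates 2 and 3, and 6, 5 and 30 in Q111/+ replicates 1 and 2 and WT replicate 1. In the other 3 segments the prefixes overlapped. Outside the window JP lay wholly below DB in 5 of 8 proximal and 2 of 8 distal segments and above it in 0. The share of such segments over the genome was not computed. By the same measure, 28.6% of the 0.92 Mb windows were higher and 21.6% lower in every JP than in every DB library. The segment counts thus describe the locus and are not a test. The segment that touches the window on the proximal side, 36850001 to 37080000, was high in both, with means of 1.24 in DB and 1.55 in JP libraries. Of the 20 segments, 0 separated the genotypes.

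**Figure D3:**
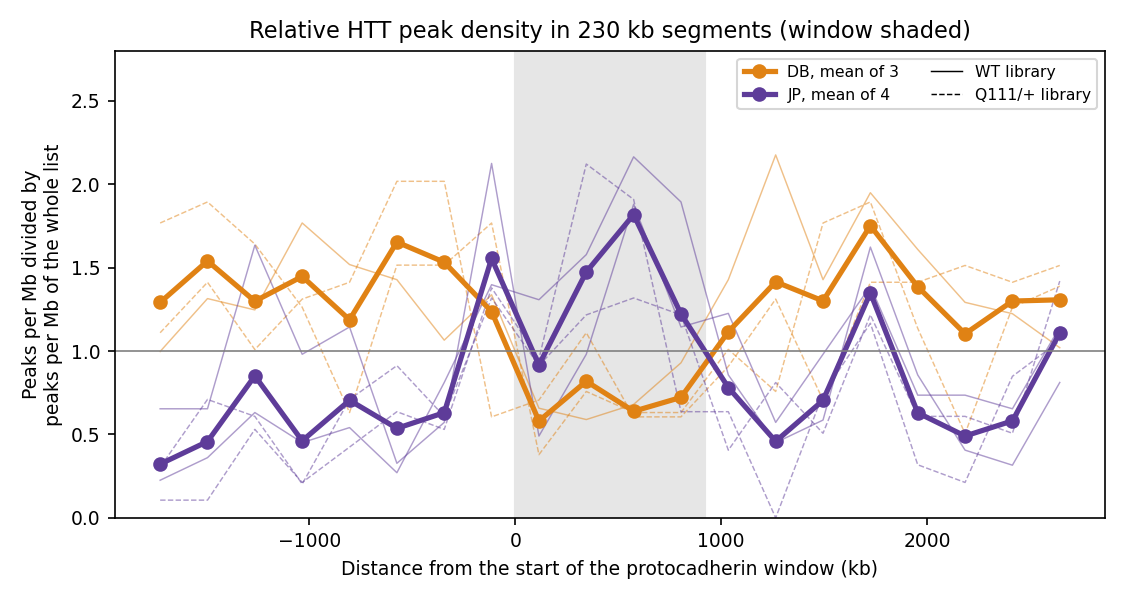
Peaks per Mb in segments of 230 kb divided by the peaks per Mb of the whole list (vertical axis), by distance from the start of the protocadherin window (horizontal axis; window shaded). Thick lines are the means of the 3 DB and 4 JP libraries and thin lines single libraries (solid WT, dashed Q111/+); the DB mean stays at or below 0.819 inside the window and at or above 1.10 outside it, where the JP mean is below the DB mean in all but 1 segment.

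Peaks were scattered over the locus and were not gathered at a few sites. Among 46 bins of 20 kb, 21, 17, 33 and 27 held a peak in Q111/+ replicates 1 to 4, and 43, 44 and 32 in WT replicates 1 to 3. The 2 bins with a peak in all 7 libraries were at 37320001 to 37340000 and 37740001 to 37760000. The bin at 37540001 to 37560000 held the most peaks over all lists, 21, with 6 and 4 in Q111/+ replicates 3 and 4, 3, 4 and 3 in WT replicates 1 to 3, 1 in Q111/+ replicate 2 and 0 in Q111/+ replicate 1. The longest gap between neighbouring summits, window edges not counted, ran from 29413 bp in WT replicate 2 to 133474 bp in Q111/+ replicate 2. It was longest in the libraries with the fewest peaks in the window.

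Most peaks of the locus rested on few sequenced fragments. The number of fragments at each summit was recovered from the deposited fold and −log10 p, which match whole fragments multiplied by a constant for each library. Each fragment thus counted several times in the deposited p. The deposited p and q values therefore overstate the evidence of so few fragments. A p from the fragments themselves was not computed. The median peak of the window held 5 fragments in each Q111/+ library, and 4, 4 and 6 in WT replicates 1 to 3. The highest held 7, 7, 19 and 16 in Q111/+ replicates 1 to 4 and 8, 10 and 10 in WT replicates 1 to 3. Peaks of at least 6 fragments made up 23.3% and 42.1% of the window's peaks in Q111/+ replicates 1 and 2 and 8.73% in WT replicate 1, against 42.8%, 37.0% and 22.0% in the flanks. In Q111/+ replicates 3 and 4 and WT replicates 2 and 3 the shares were 30.2%, 37.0%, 9.74% and 50.9%, against 42.9%, 36.4%, 22.4% and 41.8% in the flanks. The share in the window was lower than in the flanks in 4 libraries and higher in 3.

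The authors' fold enrichment of a peak over its local background had like medians in the window and the flanks. The median fold in the window was 3.38, 3.49, 2.78 and 2.89 in Q111/+ replicates 1 to 4 and 3.19, 2.99 and 3.12 in WT replicates 1 to 3. The median in the flanks was the same value in 4 libraries and lower in 3, namely Q111/+ replicates 1 and 2 and WT replicate 3. On the log2 scale the difference was 0.027 ± 0.038 (SD, n = 7; two-sided exact sign-flip permutation test, p = 0.25). With equal medians in 4 libraries this is the smallest p that the test could give, so it says nothing about whether the medians differ. Peaks with the same few fragments over the same background share 1 fold value, which makes equal medians likely. Among peaks of at least 6 fragments the difference was 0.055 (exact permutation p = 0.0156, the smallest possible). This limit was added after the data were seen. Since the fold is taken over the local background, the difference is not independent of the background difference given below.

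The local background of the peaks separated the locus from its flanks in both sets of libraries. For each peak the background that the caller used was computed from the fold and the fragments. It has a lower limit, the floor, which is constant within a list (1.14 to 1.65 fragments), and a peak was counted as above the floor when its background exceeded it by more than 2%. In the window 10.0%, 42.1%, 5.66% and 10.9% of peaks were above the floor in Q111/+ replicates 1 to 4, and 12.7%, 10.4% and 16.4% in WT replicates 1 to 3. In the flanks the shares were 63.8%, 69.1%, 34.1% and 51.2%, and 58.8%, 51.8% and 61.1%. The window was lower in 7 of 7 libraries, by -40.3 ± 9.62 percentage points (SD, n = 7; two-sided exact sign-flip permutation test, p = 0.0156, the smallest possible). It was also below the share in the whole list, 23.6% to 52.3%, in each library. Q111/+ replicate 2 had the highest share in the window and the fewest peaks there, 19, of which 8 were above the floor, some of them by little more than 2%.

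This measure was also chosen after the data were seen. Of the 2675 tiled windows, 19.5% had a lower and 16.6% a higher share than their flanks in all 7 libraries. By the mean difference the protocadherin window ranked 11 of 2675 from the lowest. Whether the background came from input DNA or from the precipitated library itself is not stated in the labels, and its part in the number of peaks was not tested.

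**Figure D4:**
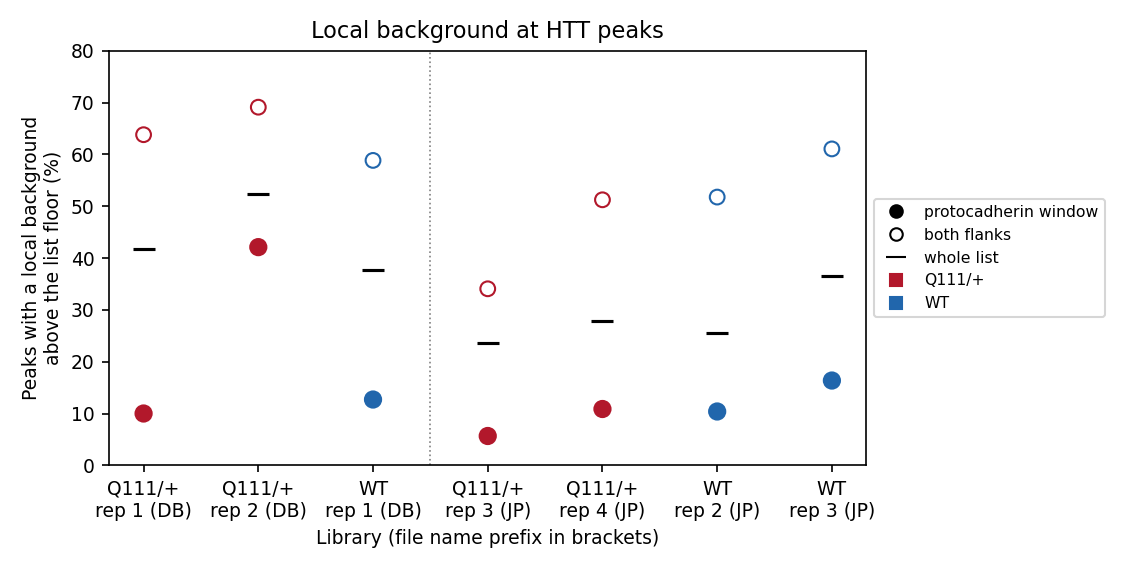
Share of peaks whose local background is above the floor of their list (vertical axis, percent), for the protocadherin window (filled circles), both flanks (open circles) and the whole list (dashes) in each of the 7 libraries. The window is the lowest of the 3 in every library, and the flanks are the highest.

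Few sites of the locus were called in more than 1 library. Merging overlapping peaks of the 7 full lists gave 410 regions in the window, of which 344 were called in 1 library, 61 in 2, 4 in 3, 1 in 5 and 0 in all 7. The share called in at least 2 libraries was 16.1%, against 13.0% in the flanks and 15% of all 1075255 regions of the genome. At least 4 libraries called 1 region, or 0.244%, against 0.321% in the flanks and 0.95% genome-wide. In lists trimmed to equal length the window had 194 regions, of which 9.79% were called in at least 2 libraries and 0 in at least 4, against 9.9% and 1.16% genome-wide. In the flanks of the trimmed lists the shares were 7.26% and 0.346%. Both sets of lists thus gave a recurrence near or below that of the genome. For calls in at least 2 libraries it was somewhat above that of the flanks, and for at least 4 it was below. WT lists alone made up 272 of the regions, Q111/+ lists alone 109, and 29 held peaks of both genotypes. As shares these are 66.3%, 26.6% and 7.07%, close to the 64.6%, 26.8% and 8.66% of all regions genome-wide. The pair with the most shared regions was WT replicates 1 and 2, with 21, which is 16.7% of the regions of the first and 13.6% of those of the second. These are the longest lists, and they have different prefixes. Q111/+ replicates 1 and 2, which share both genotype and prefix, had 0 in common. No region was called in every JP and no DB library or the reverse, classes that held 0.0167% and 0.0567% of regions genome-wide.

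The region called most often lay at 37789964 to 37790526, 563 bp, with peaks in Q111/+ replicates 2 and 4 and in all 3 WT libraries. Its peaks held 4 and 5 fragments in the Q111/+ and 4, 3 and 5 in the WT libraries, and the authors' fold was 2.76 and 2.89, and 3.19, 2.28 and 3.12. Their −log10 p lay between the 17.5th and the 61.4th percentile of their lists, ties counted. The peak in WT replicate 2 had a −log10 p of 3.00, the lowest of that library's peaks in the window and next to the calling limit.

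The peaks with the most fragments in the locus were those of Q111/+ replicates 3 and 4 in the region at 37546999 to 37547497, 499 bp. They held 19 fragments in Q111/+ replicate 3 (fold 5.37, −log10 p 34.9) and 16 in replicate 4 (fold 4.74, −log10 p 26.5). Q111/+ replicate 2 had a peak of 7 fragments there (fold 2.37, −log10 p 5.92), at the 32.5th percentile of its list. As in all lists, these p values are those of the multiplied fragments. No peak was called there in Q111/+ replicate 1 or in any WT library. WT replicates 1 and 2 had their nearest peaks 497 and 566 bp away, WT replicate 3 at 3061 bp and Q111/+ replicate 1 at 19330 bp. Unlike most peaks of the window, these 3 had a local background of 2.03 to 2.19 times the floor. This was the 1 region of the window called in at least 3 Q111/+ and no WT library, a class that held 453 regions or 0.0421% of those in the genome. In lists trimmed to equal length 1 region was again in that class, against 0.117% genome-wide. The lists do not show whether the WT libraries had fewer fragments there or a higher background.

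A single region had calls from all 3 WT libraries and from none of the Q111/+ libraries, at 37387892 to 37388400, 509 bp. It held 4, 5 and 7 fragments in WT replicates 1 to 3, with folds of 3.19, 3.71 and 4.31, each at the floor of the background. The nearest Q111/+ peaks were 2773 to 15539 bp away. Such regions made up 0.244% of the regions of the window, 0.161% of those in the flanks and 0.321% of those genome-wide, so the window was near the background share. With 1 WT library left out, so that only 2 had to call a region, there were 10, 3 and 19 such regions without replicates 1, 2 and 3. At least 2 WT and no Q111/+ library called 30 regions, or 7.32% of the window, against 4.49% in the flanks and 5.39% genome-wide. In lists trimmed to equal length 0 regions were called by all 3 WT libraries alone, against 0.0781% genome-wide. The reverse class, all 4 Q111/+ libraries and no WT, was empty in the window and held 0.0027% of regions genome-wide.

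The other regions named by rank were called in 3 or 2 libraries, 3 of them with calls from both genotypes and 2 with calls from WT alone. Q111/+ replicate 3 and WT replicates 1 and 2 shared 37665258 to 37665739, with 6, 4 and 3 fragments. Q111/+ replicates 2 and 4 and WT replicate 2 shared 37838737 to 37839092, with 6, 6 and 3 fragments. WT replicates 1 and 2 shared 37957755 to 37958091, with 7 and 6 fragments and folds of 5.48 and 4.42. WT replicates 2 and 3 shared 37575104 to 37575383, with 5 and 7 fragments, and Q111/+ replicate 4 and WT replicate 3 shared 37454669 to 37454992, with 6 and 8. All 5 of these regions had peaks at the floor of the background.

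**Figure D5:**
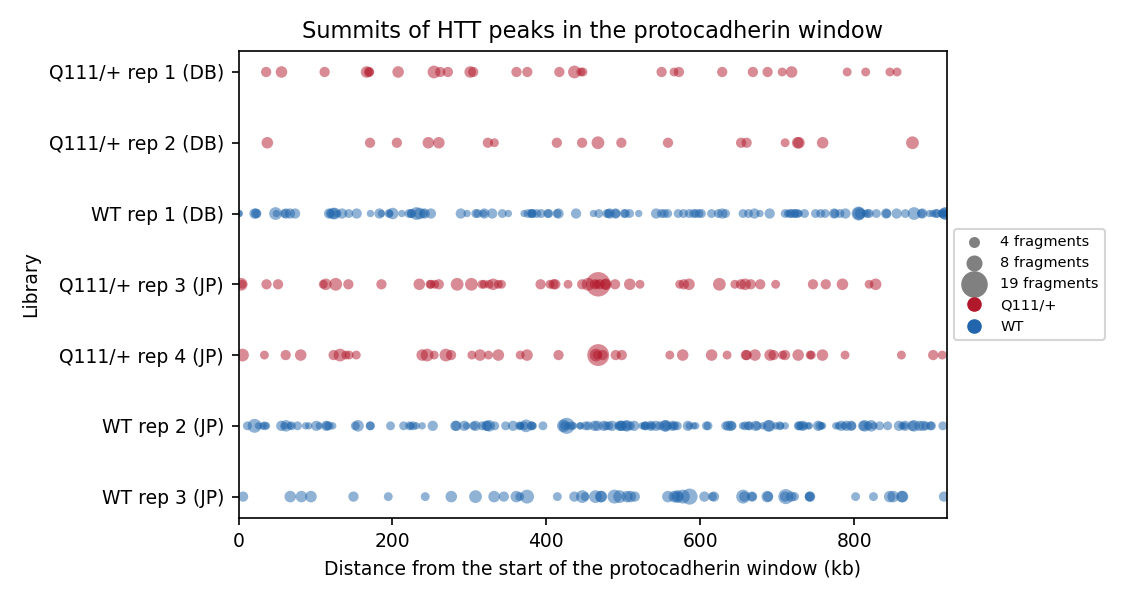
Summits of the 483 peaks in the protocadherin window by library (rows, DB above JP) and distance from the start of the window (horizontal axis, kb), with the area of each point growing with the recovered fragments and colour giving the genotype. Points are spread over most of the window in each list, though Q111/+ replicate 3 has none beyond 828 kb. The largest ones, of 19 and 16 fragments, are in Q111/+ replicates 3 and 4 at the same place.

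The highest peak of the window fell at a different place in most libraries. By −log10 p it was at 37333886 to 37334060 in Q111/+ replicate 1 (fold 4.68), tied with a peak whose summit lay 436 kb from the window start. In Q111/+ replicate 2 it was at 37955718 to 37955859 (fold 4.21), and in Q111/+ replicates 3 and 4 in the region at 37546999 to 37547497. In WT replicates 1, 2 and 3 it was at 37885571 to 37885865 (fold 6.25), 37506182 to 37506448 (fold 7.28) and 37665908 to 37666098 (fold 6.09). With a −log10 p of 13.1 to 34.9, these peaks stood above 91.7% to 99.6% of the peaks of their own lists, where they ranked between 409 and 6858.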

How the data were processed

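HTT ChIP-seq peak lists of 4 Q111/+ and 3 WT striatal libraries were used, 1 list per library. The submitters' processing notes list Bowtie2 2.2.5, MACS2 2.1 and mm9 without a role. Per the file names, peaks were called from read pairs at a p of 0.001. The authors deposited for each peak the fold over its local background and the −log10 of its p and q values. These p values match fragments multiplied by a constant for each library, so they are smaller than the fragments alone would give. Without read totals the depth is unknown, and no counting interval could be formed. Peaks were assigned by summit. Fragments per summit were found by searching up to 60 fragments for the whole number that matched the deposited −log10 p within 0.02, which succeeded for at least 99.9% of each list below a −log10 p of 60. Regions are peaks of the 7 lists merged at an overlap of 1 bp, and those named were the 8 called in most libraries, ranked by the lowest percentile of −log10 p, and up to 5 called in all libraries of 1 genotype alone. Tiled windows needed a peak in every list, in the window and in its flanks (2675 of 2690). Tests were exact permutations over libraries. The members and lists were chosen with earlier results of these data known. The alternatives were other thresholds (−log10 p of 5, −log10 q of 2, 6 fragments), list lengths, flanks, membership rules, blocks and each library left out. The scripts were tested on simulated data. Computations used scipy 1.17.1, pandas 2.3.3 and numpy 2.4.6 under Python 3.11.15, and figures matplotlib 3.10.9. The prefix comparison, the limit of 6 fragments, the genotype block and the background measure were added after seeing the data.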

Additional observations from a re-analysis of the deposited data

Results flagged for a closer look

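The effect of being in the protocadherin window differed between libraries whose list names begin with JP and those that begin with DB. The log2 ratio of peak density to the flanks differed by 1.90 (exact permutation p = 0.0286), and that to the whole list by 0.96 (exact permutation p = 0.0286). With prefixes permuted within genotypes neither passed the threshold, at 1.89 (exact permutation p = 0.111) and 0.95 (exact permutation p = 0.0556, the smallest that design allows). Among 10 measures, none had a library far from the others within the 4 Q111/+ libraries by Dixon's test, which can find little among so few. The share of the window's peaks above the background floor was not among these measures. It was 42.1% in Q111/+ replicate 2, against 10.0%, 5.66% and 10.9% in replicates 1, 3 and 4. The height of the share in replicate 2 depends on the limit of 2%, since some of its peaks lay just past it. Its peak at 37789964 to 37790526, for example, had a background of 1.023 times the floor.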

How the results depend on the processing

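The comparisons that did not pass the threshold stayed so under every alternative run, except the median fold among peaks of at least 6 fragments (0.055, exact permutation p = 0.0156). For the genotype differences some of these runs could not have passed. The smallest possible exact permutation p was 0.0667 to 0.1 with 1 library left out and 0.0556 with a prefix block, so these runs do not show stability. Directions changed for the ratios below, and the median fold kept its direction throughout. The mean log2 ratio to the flanks over all 7 libraries, 0.10, became -0.061 in lists trimmed to equal length and -0.39 among peaks of at least 6 fragments, and ran from -0.11 to 0.32 with 1 library left out. The Q111/+ minus WT difference of that ratio, -0.19, became 0.26 among peaks of at least 6 fragments and 0.10 with a prefix block, and ran from -0.78 to 0.40 with 1 library left out. Relative to the whole list it was -0.27, became 0.077 among peaks of at least 6 fragments, and ran from -0.59 to 0.052. The cause of these reversals was not tested. With a replicate block the 2 differences were -0.42 and -0.38 (exact permutation p = 1 for both, where the smallest possible is 0.25). That block leaves out Q111/+ replicate 4, which has no WT library of the same number. Over windows, the deviations of libraries with the same number correlated at 0.60 for replicate 1 and -0.002 for replicate 3. These pairs also share a prefix. For replicate 2, where the prefixes differ, the correlation was -0.56. The numbers are those of the sample titles, and WT list names carry other numbers. Whether the numbers mark a pairing was not tested. The median fold difference ran from 0.016 to 0.032 with 1 library left out.

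The JP minus DB differences kept their direction under all alternatives run. They no longer passed the threshold against the proximal flank alone (2.05, exact permutation p = 0.0571) and with a genotype block (1.89, p = 0.111, and 0.95, p = 0.0556). With 1 library left out they ran from 1.74 to 2.14 and from 0.84 to 1.04, where fewer samples put the threshold out of reach. Otherwise they ran from 1.65 to 2.24 against both flanks or the distal one, and from 0.76 to 1.20 against the whole list. The background difference of -40.3 percentage points ran from -45.4 to -26.1 over 9 alternatives and passed in each, and from -42.5 to -38.0 with 1 library left out. In lists trimmed to equal length 0 regions were called in at least 4 libraries and 0 in all WT and no Q111/+ library, against 1 and 1. With 1 library left out the counts were 1 to 1 and 1 to 19, and 0 to 1 for all Q111/+ and no WT library. Median peaks of 4 to 6 fragments limit what single sites can show.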
